A study of Mus musculus with 12 samples.

Results

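Podosomes are small actin-rich adhesions by which osteoclasts hold on to bone. 37 genes of podosomes and of the actin ring were followed in mouse osteoclast precursor cells kept with RANKL, or with RANKL and the glucocorticoid dexamethasone. They were chosen by symbol, as adaptors, kinases, activators of actin assembly, subunits of the ARP2/3 complex, crosslinkers and myosins of these structures. The choice was made with earlier results of these data known. All 37 were found among the 28293 genes of the deposited count table, and all 37 had enough reads to be tested. With dexamethasone 10 of them (27.0%) changed, beside 15.5% of all tested genes; among genes at 100 CPM or more the shares were 23.5% of members and 28.2% of tested genes. Evl, Myo1f, Coro1a, Cbl, Sh3pxd2a and Myo10 fell, and Ezr, Msn, Arpc4 and Gsn rose. With the trend of fold change over exon length removed, Cbl, Sh3pxd2a and Myo10 gave no call. Myo10 was called in 10 of 26 alternative settings, Cbl and Gsn in 24, Sh3pxd2a in 25 and the others in all 26. The largest change was the fall of Evl by 41.8%, and 5 members, among them Fscn1, which did not pass the test, differed by more than 1.2-fold. The listed talin, vinculin, paxillin and kindlin genes (Tln1, Vcl, Pxn and Fermt3), which join integrins to actin, gave no call. Neither did the kinase genes Src and Ptk2b.

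In a podosome a core of branched actin is built by the ARP2/3 complex under its activators WASP and cortactin. A surrounding ring of talin, vinculin and paxillin ties the core to integrins. As osteoclasts mature, podosomes gather into a belt, and on bone they condense into the actin ring, or sealing zone, that encloses the resorption pit. The kinases Src and Pyk2 and the ubiquitin ligase CBL act downstream of the integrin in this rearrangement.

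The study used RNA sequencing of poly(A) RNA to ask how a glucocorticoid, applied as a culture model of osteonecrosis of the femoral head, alters these cells. Marrow of femurs and tibias came from 6-month-old male wild-type mice. Non-adherent cells were grown for 3 days in 10 ng/ml M-CSF, a macrophage growth factor, and then induced with RANKL, the osteoclast-inducing cytokine. The 6 RANKL libraries received 25 ng/ml RANKL for 24 h, and the 6 RANKL+Dex libraries received the same RANKL with 10 nM dexamethasone for 24 h. Both groups carried M-CSF at 10 ng/ml in the induction medium, and no group without RANKL enters the comparison. The protocols can be read to place these 24 h together with, or after, a first day of RANKL. Each group holds batches 1 to 6, so each RANKL library has a RANKL+Dex library of the same labelled batch. The labels describe primary bone marrow cells and do not say whether each culture had a mouse of its own. The p-values below therefore describe the spread between cultures, which may not be that between animals.

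Library totals ran from 17674405 to 25451498 counts in RANKL and from 16820193 to 28523595 in RANKL+Dex, and the 37 genes took 2.36% to 2.52% of the counts of a library. Levels are given as CPM, the count of a gene relative to the library total, scaled between libraries by the trimmed mean of M-values (TMM). Markers of the labelled cell type were abundant: all 12 osteoclast markers were tested, and their summed level was 48147 to 52262 CPM in RANKL against 49711 to 53563 CPM in RANKL+Dex, led by Mmp9. Of the 12, 5 rose, among them Calcr (2.79-fold), and Itgb3 fell. Car2, lower in 6 of 6 batches, was called lower only with batch as a block (edgeR BH-adjusted p = 0.109 without, 0.047 with). Macrophage markers summed to 5722 to 8676 CPM and 5646 to 8834 CPM, led by Lyz2; of 8 tested, Mertk rose 1.95-fold, Mrc1 fell and 6 gave no call. With batch as a block the macrophage genes Lyz2 and Adgre1 were also called lower (edgeR BH-adjusted p = 0.007 and 0.000111) and Fcgr1 higher (0.0403). Markers of B cells, T and NK cells and erythroid cells, led by Cd79a, Cd4 and Epor, summed to less than 3 CPM in each library, and of these genes only Cd4 had enough counts to be tested. Cd4 had a log2 fold change of −1.17 and was lower in 6 of 6 batches, at the edge of the threshold (edgeR BH-adjusted p = 0.05003 without and 0.00183 with the block). Neutrophil markers, all 10 of them in the table and led by Mmp8, summed to 39.2 to 78.5 CPM in RANKL and to 19.3 to 30.8 CPM in RANKL+Dex, and all 6 that could be tested fell. Summed dendritic cell markers went from 64.4 to 86.5 CPM down to 41.9 to 48.9 CPM, with 2 of 5 tested markers lower and Itgax most abundant. In the same way endothelial markers, led by Vwf, summed to 38.8 to 49.6 CPM and 27.0 to 34.9 CPM, with 3 of 4 tested lower, and the fourth, Cdh5, called lower with the block (edgeR BH-adjusted p = 0.0484). Stromal markers, led by Col1a1, summed to 7.56 to 24.2 CPM against 7.16 to 27.1 CPM, with 2 of 6 tested higher; Col1a1 was called lower with the block (edgeR BH-adjusted p = 0.298 without, 0.0377 with). Megakaryocyte markers summed to 30.2 to 56.8 CPM against 33.5 to 60.2 CPM, with Pf4, their most abundant gene, higher, and Ppbp and Itga2b called lower with the block (edgeR BH-adjusted p = 0.00273 and 0.0412). In bulk RNA, fewer cells of a type and less RNA per cell cannot be told apart, and the part of these other cells in the changes described below was not tested.

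Promoter sequence is shown for 6 members: the 3 that hold a match to either motif searched, and, as examples of the changed members that hold none, Ezr, Msn and Myo1f, which were called in all 26 alternative settings and have 1 listed start each. The called members Cbl, Coro1a, Gsn and Myo10 hold none either. The sequences are the 250 bases before the annotated start, 5′ to 3′ on the strand of the gene, from RefSeq on GRCm38.p6, a build other than that of the counts. RefSeq promoters were matched for 33 members at 41 starts; Cttn, Ptk2b, Pxn and Sh3pxd2a were not matched. Both strands were searched for ACANNNTGT, the core of the element bound by the glucocorticoid receptor, and for the CArG box of serum response factor, a regulator of many actin genes; capitals mark a match. The 2 motifs share no matched base in these windows.
Evl (second start, chr12:108605516-108605765, plus strand; ACANNNTGT from base 143 to base 135 upstream): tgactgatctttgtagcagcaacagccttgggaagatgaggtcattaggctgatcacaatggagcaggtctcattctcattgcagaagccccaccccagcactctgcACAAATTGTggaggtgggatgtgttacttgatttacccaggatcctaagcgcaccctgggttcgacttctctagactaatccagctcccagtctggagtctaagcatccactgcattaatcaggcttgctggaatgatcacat
Arpc4 (chr6:113377863-113378112, plus strand; CArG box from base 250 to base 241 upstream): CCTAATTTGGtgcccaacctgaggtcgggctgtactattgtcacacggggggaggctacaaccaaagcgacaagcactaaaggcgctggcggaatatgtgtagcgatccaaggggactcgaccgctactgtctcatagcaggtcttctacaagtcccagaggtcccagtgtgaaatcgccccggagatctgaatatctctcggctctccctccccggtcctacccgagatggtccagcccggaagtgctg
Vcl (chr14:20929148-20929397, plus strand; CArG box from base 227 to base 218 upstream): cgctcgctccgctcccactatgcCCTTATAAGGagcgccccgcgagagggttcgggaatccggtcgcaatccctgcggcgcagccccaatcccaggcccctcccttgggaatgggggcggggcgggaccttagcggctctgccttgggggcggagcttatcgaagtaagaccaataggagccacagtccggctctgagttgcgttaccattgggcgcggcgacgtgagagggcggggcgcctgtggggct
Ezr (chr17:6782781-6783030, minus strand): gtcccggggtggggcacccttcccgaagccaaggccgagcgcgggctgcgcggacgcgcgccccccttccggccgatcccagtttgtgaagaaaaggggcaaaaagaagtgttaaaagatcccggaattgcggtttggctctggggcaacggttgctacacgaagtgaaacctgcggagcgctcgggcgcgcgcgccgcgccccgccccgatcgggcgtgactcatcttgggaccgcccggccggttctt
Msn (chrX:96095795-96096044, plus strand): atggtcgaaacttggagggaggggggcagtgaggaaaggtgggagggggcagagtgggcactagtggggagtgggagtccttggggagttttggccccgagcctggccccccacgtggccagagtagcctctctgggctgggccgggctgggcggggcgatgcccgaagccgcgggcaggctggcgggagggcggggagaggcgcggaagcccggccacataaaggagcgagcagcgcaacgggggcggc
Myo1f (chr17:33555457-33555706, plus strand): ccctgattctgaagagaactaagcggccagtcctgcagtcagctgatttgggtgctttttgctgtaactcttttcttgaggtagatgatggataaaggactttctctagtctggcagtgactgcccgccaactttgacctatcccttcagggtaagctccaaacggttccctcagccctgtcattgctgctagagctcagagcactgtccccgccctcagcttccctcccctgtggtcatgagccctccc

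The ACANNNTGT core was found in 1 of the 41 member promoters (2.44%), against 847 of 19071 promoters of the genes of the count table (4.44%). CArG boxes were found in 2 of 41 (4.88%), against 234 of 19071 (1.23%). Of the 3 genes with a match, Evl fell, Arpc4 rose and Vcl gave no call. A match is a run of letters and no measured binding site.

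Differences between the groups were tested with edgeR's quasi-likelihood test, two-sided, with p-values adjusted over all 13775 tested genes by the Benjamini-Hochberg (BH) method. A gene counts as changed, or called, at an adjusted p under 0.05, and fold changes are RANKL+Dex over RANKL. By this rule 15.5% of tested genes were called, 7.98% higher and 7.55% lower. Of the 37 members 10 (27.0%) were called, 4 higher and 6 lower, and 27 gave no call. Abundant genes are called more often, and most members are abundant: among genes at a mean of 100 CPM or more, a floor chosen after the values were seen, 8 of 34 members (23.5%) and 605 of 2146 tested genes (28.2%) were called. The median log2 fold change was −0.02 over the members and −0.00 over all tested genes, with 17 members above 0 and 20 below. The median size of the log2 fold change, whatever its sign, was 0.09 over the members and 0.11 over all tested genes. In 6 of 37 members the 6 RANKL and the 6 RANKL+Dex libraries did not overlap, as was the case for 7.01% of tested genes. With the batch number as a block, 13 members (35.1%), 6 higher and 7 lower, were called, against 21.8% of tested genes. Neither the overlap nor the calls with the block were counted among genes at 100 CPM or more, where most members lie. The split of the calls depended on gene length: with the trend of fold change over exon length removed, 5 members were called higher and 3 lower.

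**Figure D1:**
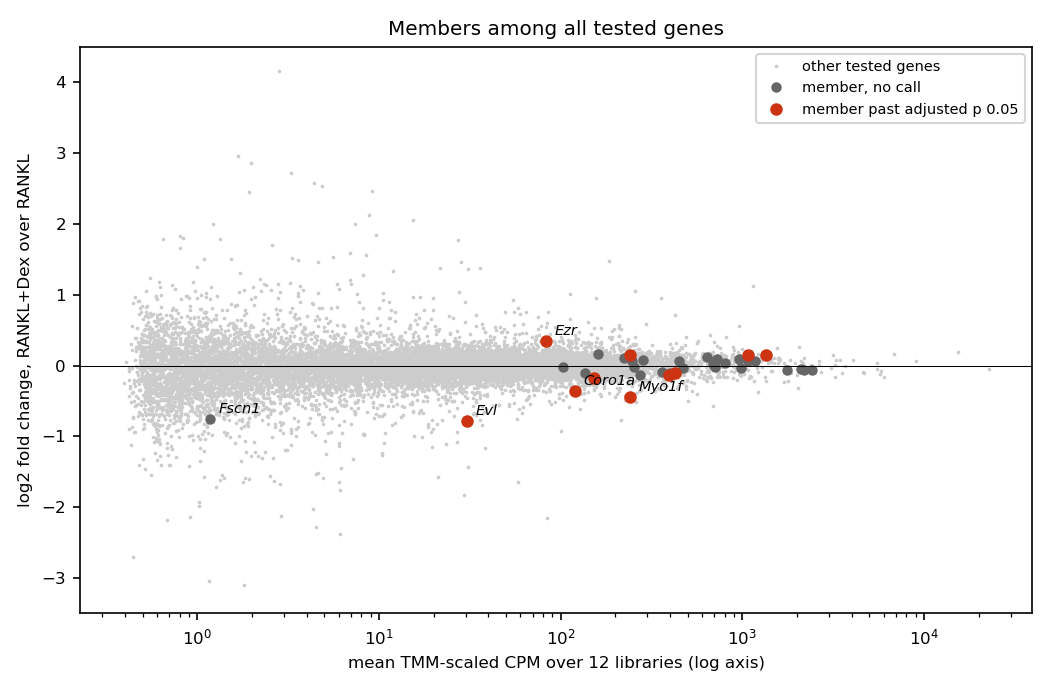
Log2 fold change of each tested gene, RANKL+Dex over RANKL, against its mean TMM-scaled CPM over the 12 libraries on a log axis. Members past adjusted p 0.05 are red, other members dark grey and all other genes light grey. Evl and Fscn1 lie furthest from 0 among the members, followed by Myo1f, Coro1a and Ezr, and most members lie above 100 CPM.

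The members covered a wide range of levels. Per kilobase of exon, Pfn1, whose product profilin supplies actin monomers to growing filaments, was highest at 479 CPM per kb in RANKL. It was followed by Cfl1 (cofilin, which severs filaments) at 369 CPM per kb, Arpc2 at 337 CPM per kb and Gsn at 323 CPM per kb. Lasp1, Lcp1, Flna, Tln1 and Msn came next, between 203 and 276 CPM per kb. Ezr at 22.3, Evl at 13.2 and Cbl at 13.1 CPM per kb stood near the bottom. Fscn1, which encodes the filopodial bundler fascin, was lowest at 0.494 CPM per kb and was the one member near the limit of the test.

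**Figure D2:**
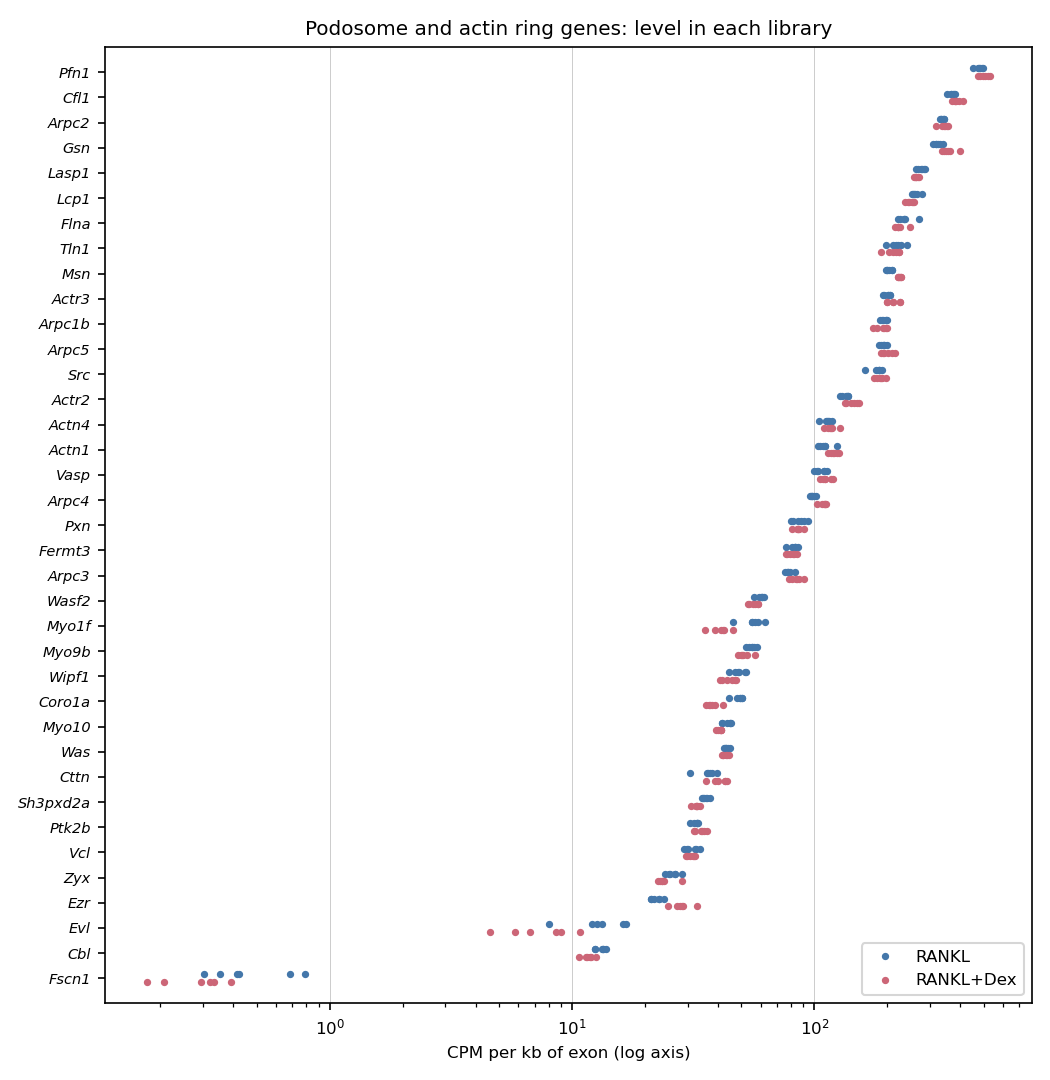
Level of each of the 37 members in each library, in CPM per kilobase of exon on a log axis, with RANKL in blue and RANKL+Dex in red (6 points each). Members are ordered by their RANKL mean from Fscn1 at 0.494 to Pfn1 at 479 CPM per kb; the spread of a gene across libraries is small beside the differences between genes.

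The integrin-linked adaptors form the ring around the podosome core. None of the 6 was called, and all 6 had a log2 fold change below 0, with a median of −0.04, although Vcl and Pxn lay just above 0 with the length trend removed. Talin 1 (Tln1), which activates integrins and binds actin, averaged 2150.1 ± 148 CPM with RANKL alone and 2070.0 ± 134 CPM with dexamethasone (SD, n = 6 each). Its log2 fold change was −0.05, with a 95% interval of −0.17 to 0.06 (edgeR BH-adjusted p = 0.513). For vinculin (Vcl), which reinforces the talin link, the interval was −0.10 to 0.08 around −0.01 (edgeR BH-adjusted p = 0.868). For the scaffold paxillin (Pxn) it was −0.11 to 0.07 around −0.02 (edgeR BH-adjusted p = 0.819). Kindlin-3 (Fermt3), the integrin co-activator of blood cells, lay at −0.03 with an interval of −0.11 to 0.05 (edgeR BH-adjusted p = 0.578). The LIM protein gene Lasp1 was lower in RANKL+Dex in 6 of 6 batches by a small amount, from 1790.4 to 1712 CPM in the mean, and did not pass the test (log2 fold change −0.06, edgeR BH-adjusted p = 0.156). Zyxin (Zyx), a LIM protein of stressed actin, ranged from 130.1 through a median of 139.5 to 153 CPM in RANKL and from 122 through 127 to 153 CPM in RANKL+Dex. Its log2 fold change of −0.11 gave no call (edgeR BH-adjusted p = 0.209). 1 library decided that: without RANKL+Dex replicate 1, Zyx was at −0.16 with an edgeR BH-adjusted p of 0.015.

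Among the kinases and their partners, the kinases were not called and both the scaffold and the ubiquitin ligase fell. Src, whose loss in mice leaves osteoclasts without a ruffled border, had a mean of 790.2 CPM without and 814 CPM with dexamethasone. Its log2 fold change was 0.04 with an interval of −0.05 to 0.13 (edgeR BH-adjusted p = 0.530). Pyk2 (Ptk2b), the adhesion kinase that works with SRC in podosomes, went from 239.6 to 251 CPM (log2 fold change 0.07, interval −0.01 to 0.15, edgeR BH-adjusted p = 0.226). Sh3pxd2a (ENSMUSG00000053617, chr19:47248613-47452840 on GRCm39, minus strand) encodes TKS5, a SRC substrate that scaffolds podosomes and invadopodia. Its libraries ranged from 398 through a median of 411 to 431 CPM in RANKL and from 358 through 378 to 389 CPM in RANKL+Dex. The groups did not overlap, and the change was small, −0.13 ± 0.03 (SE) on the log2 scale (edgeR BH-adjusted p = 0.00924). Cbl (ENSMUSG00000034342, chr9:44054273-44145346, minus strand), the ubiquitin ligase that SRC and Pyk2 bind, ranged from 153 through 164 to 171 CPM in RANKL and from 132 through 144 to 154 CPM in RANKL+Dex. The groups overlapped at their edges, and Cbl was lower in all 6 batches (log2 fold change −0.17 ± 0.04, edgeR BH-adjusted p = 0.0105). Both transcripts are long, with summed exons of 11593 bases for Sh3pxd2a and 12345 bases for Cbl. With the length trend removed neither call held, at −0.08 (adjusted p = 0.105) and −0.12 (adjusted p = 0.0774). Cbl also lost its call without batch 2 in both groups (edgeR BH-adjusted p = 0.0519).

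The activators that start branched actin assembly gave no call in edgeR without the block on all 12 libraries, while DESeq2 called Wipf1 lower (adjusted p = 0.045) and Cttn higher (adjusted p = 0.0493). Was, encoding WASP, whose loss abolishes podosomes in macrophages, averaged 103 CPM without and 102 CPM with dexamethasone (log2 fold change −0.02, edgeR BH-adjusted p = 0.717). Wasf2, encoding WAVE2 of lamellipodia, went from 374 to 351 CPM (−0.09, edgeR BH-adjusted p = 0.0816, and 0.0472 without RANKL replicate 1). Wipf1 and Cttn moved in opposite directions. Wipf1, which encodes WIP, the partner that stabilises WASP, ranged from 262 through 287 to 307 CPM in RANKL and from 239.9 through 264 to 279 CPM in RANKL+Dex. The groups overlapped, but within each batch RANKL+Dex was the lower library. Its log2 fold change was −0.14 ± 0.05 (edgeR BH-adjusted p = 0.0588, and 0.00493 with batch as a block). Without RANKL replicate 2 or RANKL+Dex replicate 5 the p without the block was 0.0339 and 0.0408. Cortactin (Cttn), which holds ARP2/3 branches in place, ranged from 128 through 154 to 166 CPM in RANKL and from 149.9 through 173 to 183 CPM in RANKL+Dex. Here RANKL+Dex was the higher library in 6 of 6 batches, again with overlap between the groups. The log2 fold change was 0.16 ± 0.06 (edgeR BH-adjusted p = 0.0707, 0.00343 with the block, and 0.026 without RANKL+Dex replicate 2). Hcls1, the blood-cell relative of cortactin, gave no call.

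The ARP2/3 complex nucleates the branches, and 6 of its 7 subunit genes lay above 0, with a median log2 fold change of 0.09, although Arpc2 lay just below 0 with the length trend removed. Of these, Arpc4 passed the test. Arpc4 (ENSMUSG00000079426, chr6:113355076-113367409, plus strand) ranged from 223 through 226 to 236 CPM in RANKL and from 239 through 255 to 258 CPM in RANKL+Dex. The groups did not overlap, and the rise was 10.7% (log2 fold change 0.15 ± 0.03, edgeR BH-adjusted p = 0.00391). Arpc3 was at 0.10 ± 0.04 (216 to 232 CPM, edgeR BH-adjusted p = 0.0765), Actr2 at 0.09 (697 to 743 CPM, edgeR BH-adjusted p = 0.109), Actr3 at 0.09 (925 to 983 CPM, edgeR BH-adjusted p = 0.127) and Arpc5 at 0.06 (436 to 456 CPM, edgeR BH-adjusted p = 0.268). DESeq2 called Arpc3 higher (adjusted p = 0.043). Without RANKL+Dex replicate 1, Arpc3 (edgeR BH-adjusted p = 0.0262) and Actr2 (0.0494) passed, as did Arpc3 without RANKL replicate 1 (0.046). Arpc2 was at 0.02 (685 to 695 CPM, edgeR BH-adjusted p = 0.723). Arpc1b, the isoform of blood cells, was the one subunit below 0, at −0.03 (991 to 970.1 CPM, edgeR BH-adjusted p = 0.647). Per kilobase of exon the subunit transcripts ran from 78.3 CPM per kb (Arpc3) to 337 CPM per kb (Arpc2) in RANKL, a 4.30-fold range, and from 84.1 to 342 CPM per kb in RANKL+Dex, a 4.06-fold range. Arpc1b held 87.6% to 88.3% of the ARPC1 family per length in RANKL and 87.1% to 88.4% in RANKL+Dex.

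Genes of filament assembly and turnover held the largest fall of the set. EVL is an Ena/VASP protein, which protects growing filament ends from capping. Evl (ENSMUSG00000021262, chr12:108520979-108654775, plus strand) ranged from 23.6 through 38.0 to 49.1 CPM in RANKL and from 13.5 through 22.4 to 31.6 CPM in RANKL+Dex. The groups overlapped because the batches differed widely, and Evl was lower in RANKL+Dex in 6 of 6 batches. The mean went from 38.7 ± 9.27 to 22.2 ± 6.67 CPM (log2 fold change −0.78 ± 0.18, edgeR BH-adjusted p = 0.00802). Batch 2 gave the highest Evl library and batch 5 the lowest in both groups. Vasp, the main Ena/VASP gene here, showed no such fall, with 278 and 293 CPM in the mean (log2 fold change 0.08, edgeR BH-adjusted p = 0.231). Evl made up 7.47% to 13.2% of the Ena/VASP family per length in RANKL and 4.17% to 8.26% in RANKL+Dex.

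Coro1a (ENSMUSG00000030707, chr7:126298945-126306959, minus strand) encodes coronin 1A, an actin and ARP2/3 regulator of leukocytes. It ranged from 124 through 137 to 140.5 CPM in RANKL and from 99.3 through 104 to 117 CPM in RANKL+Dex. All RANKL libraries lay above all RANKL+Dex libraries. The log2 fold change was −0.36 ± 0.04, a fall of 21.9% with the smallest p of the members (edgeR BH-adjusted p = 3.32e-05). Its span overlaps Bola2 on the opposite strand, which had 29.6% as many counts and gave no call (log2 fold change 0.12, edgeR BH-adjusted p = 0.316). Gelsolin (Gsn, ENSMUSG00000026879, chr2:35146392-35197904, plus strand) severs and caps filaments, and mice without it form no podosomes in their osteoclasts. Gsn ranged from 975 through 1016 to 1069 CPM in RANKL and from 1066 through 1113 to 1256 CPM in RANKL+Dex. The groups met at their edges, and RANKL+Dex was higher in 6 of 6 batches (log2 fold change 0.15 ± 0.04, edgeR BH-adjusted p = 0.0185). Without batch 3 or batch 4 in both groups the adjusted p rose to 0.0566 and 0.0626. Cfl1 went from 1049.6 to 1102 CPM (0.07, edgeR BH-adjusted p = 0.152) and was higher in 6 of 6 batches, and Pfn1 went from 1152 to 1204 CPM (0.06, edgeR BH-adjusted p = 0.251).

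Crosslinkers and bundlers, which shape filaments into cores, cables and ruffles, gave no call among 5 in edgeR without the block on all 12 libraries. DESeq2 (adjusted p = 0.034) and limma voom (adjusted p = 0.047) called Actn1 higher. Alpha-actinin 1 (Actn1), the crosslinker of actin cables, ranged from 571 through 606 to 683 CPM in RANKL and from 629 through 663 to 698 CPM in RANKL+Dex. The groups overlapped only through RANKL replicate 6, at 683 CPM, and RANKL+Dex was higher in 5 of 6 batches. The log2 fold change was 0.12 ± 0.04 (edgeR BH-adjusted p = 0.0542, and 0.0208 with the block). Without RANKL replicate 6 or RANKL+Dex replicate 2 it passed, at 0.00844 and 0.0392. Its paralogue Actn4 was at 0.05 (690.2 to 717 CPM, edgeR BH-adjusted p = 0.398). Filamin A (Flna), which holds filaments in an orthogonal mesh, went from 2226 ± 168 to 2123 ± 109 CPM (−0.07, edgeR BH-adjusted p = 0.366). L-plastin (Lcp1), the leukocyte bundler of podosome cores, went from 2481 to 2365 CPM and was lower in 6 of 6 batches, without passing the test (−0.07, edgeR BH-adjusted p = 0.171). Fscn1 had raw counts of 61, 22, 23, 28, 20 and 36 in the RANKL libraries of batches 1 to 6, and of 19, 33, 23, 11, 15 and 9 in RANKL+Dex. Scaled for depth it was lower in RANKL+Dex in 6 of 6 batches, from 1.49 ± 0.587 to 0.865 ± 0.243 CPM. At these counts the log2 fold change of −0.75 had a wide interval, −1.35 to −0.16, and did not pass (edgeR BH-adjusted p = 0.0668). Without RANKL replicate 5 it passed, at 0.0364.

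Both ezrin-radixin-moesin genes of the list, whose products tie the cell membrane to actin, rose. Ezr (ENSMUSG00000052397, chr17:7005440-7050183, minus strand) ranged from 69.7 through 73.4 to 78.8 CPM in RANKL and from 82.2 through 92.4 to 108 CPM in RANKL+Dex. The groups did not overlap, and the rise was 27.1% (log2 fold change 0.35 ± 0.06, edgeR BH-adjusted p = 0.000397). Msn (ENSMUSG00000031207, chrX:95139648-95212158, plus strand), the main family member here with 78.6% to 80.2% of the family per length in RANKL, ranged from 1247 through 1276 to 1328 CPM in RANKL and from 1402 through 1422 to 1447 CPM in RANKL+Dex. Again no library overlapped (log2 fold change 0.15 ± 0.03, edgeR BH-adjusted p = 0.00178). Radixin (Rdx), which is no member of the list, gave no call (140.4 to 136 CPM, edgeR BH-adjusted p = 0.374).

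All 3 myosin genes lay below 0, and 2 of them fell. Myo1f (ENSMUSG00000024300, chr17:33774681-33826738, plus strand), a class I myosin of leukocytes, ranged from 230.1 through 279 to 311 CPM in RANKL and from 176 through 207 to 230.3 CPM in RANKL+Dex. The lowest RANKL library, of batch 5, and the highest RANKL+Dex library, of batch 2, were nearly level, and all other libraries were apart. Within the batches Myo1f was lower in 6 of 6, and the mean went from 277 ± 26.6 to 204 ± 18.2 CPM (log2 fold change −0.44 ± 0.07, edgeR BH-adjusted p = 0.000218). Myo10 (ENSMUSG00000022272, chr15:25622611-25813759, plus strand), the myosin of filopodial tips, ranged from 420.0 through 448 to 458 CPM in RANKL and from 397 through 415 to 417 CPM in RANKL+Dex. The groups did not overlap, yet the difference was the smallest of those called, −0.10 ± 0.03 (edgeR BH-adjusted p = 0.0409). That call held in 10 of 26 alternative settings, and with the length trend removed its log2 fold change was −0.06 (adjusted p = 0.245). Myo9b, a class IX myosin, went from 412 to 385 CPM (−0.10, edgeR BH-adjusted p = 0.111), and without RANKL+Dex replicate 1 the adjusted p was 0.0177.

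**Figure D3:**
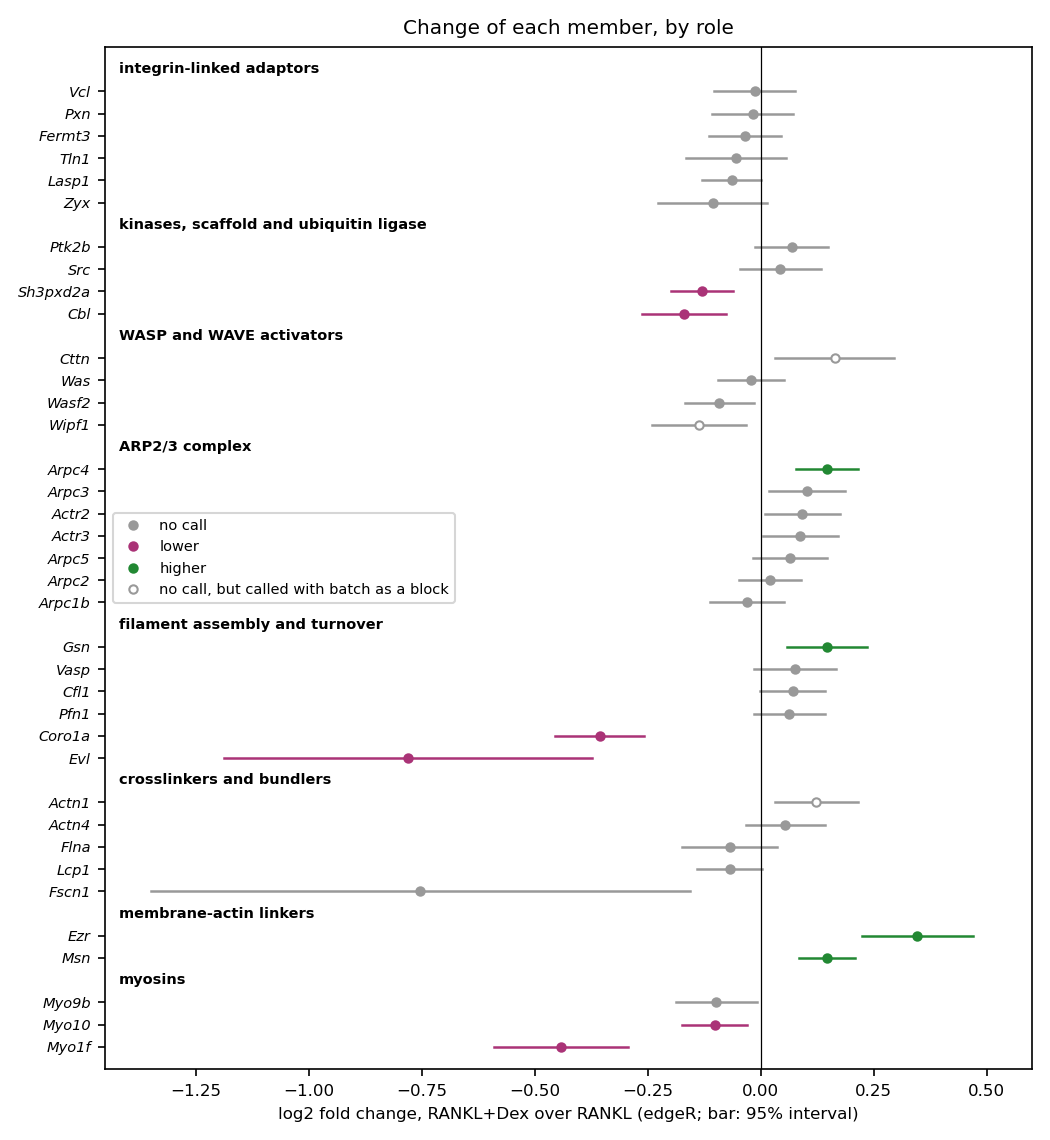
Log2 fold change of each member, RANKL+Dex over RANKL, with its 95% interval, grouped by role. Green marks the 4 members called higher, purple the 6 called lower and grey the 27 with no call; open points are 3 of these that were called with batch as a block, and Evl and Fscn1 have the widest intervals.

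**Figure D4:**
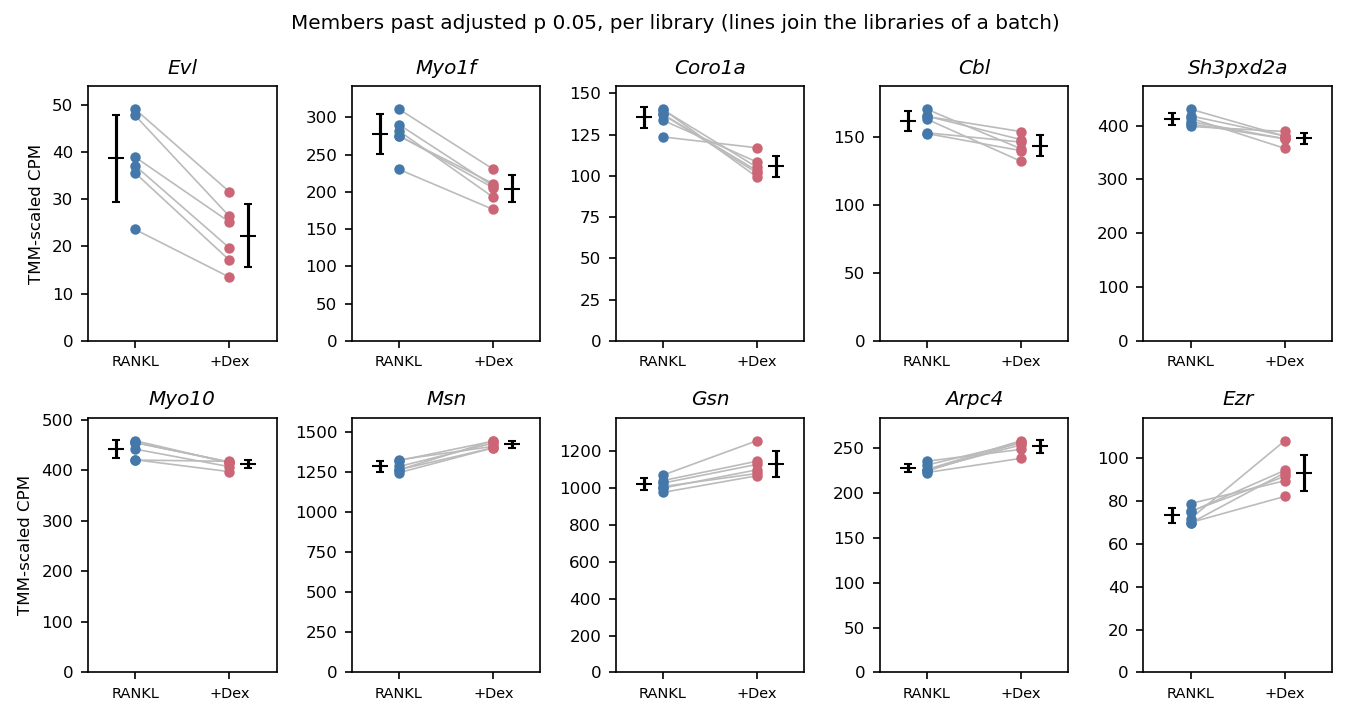
TMM-scaled CPM of the 10 called members in each library, with lines joining the RANKL and RANKL+Dex libraries of a batch, and mean ± SD beside the points (n = 6). Axes start at 0; Evl falls in each batch, from 47.7 to 26.4 CPM in batch 1 and from 23.6 to 13.5 CPM in batch 5, while the shift of Myo10, Sh3pxd2a, Msn and Arpc4 is small beside their level.

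Over all 37 members batch 6 lay lowest. The number lower in RANKL+Dex was 17, 20, 19, 18, 19 and 25 in batches 1 to 6, and the median log2 ratio of a batch lay between −0.10 (batch 6) and 0.04 (batch 1). For some genes a single batch ran against all the others. Arpc2, Arpc3, Arpc5, Actr2, Actr3 and Vasp were lower in RANKL+Dex in batch 1 alone. Pxn, Fermt3, Zyx, Flna, Wasf2 and Myo9b were higher in RANKL+Dex in batch 1 alone. Ptk2b, Actn1 and Actn4 were lower in RANKL+Dex in batch 6 alone. With a single pair of libraries, a batch could not be tested on its own. The summed neutrophil, dendritic cell and endothelial markers fell beside the leukocyte genes Coro1a and Myo1f, with the levels given above. Itgax (52.8 to 23.4 CPM) made up most of the dendritic cell sum and Vwf (40.0 to 28.0 CPM) most of the endothelial sum. Of the other tested dendritic cell markers Ccl22 fell and Cd83 and Zbtb46 gave no call. Xcr1 lay above 0 (log2 fold change 0.45), also without a call. Whether the fall of these sums has a part in the changes of Coro1a and Myo1f was not tested.

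Members were also set beside their paralogues, as shares of the family's level per kilobase of exon. Of 31 shares in 28 families, 4 did not overlap between the groups, and all 4 were lower in RANKL+Dex. Single genes did not overlap in 7.01% of those tested, and no such rate was computed for shares of all families. The share of Cbl in its family went from 45.8% to 51.1% in RANKL down to 39.2% to 41.7% in RANKL+Dex. Its paralogue Cblb, also a ubiquitin ligase, rose from 148 ± 5.75 to 177 ± 6.57 CPM (log2 fold change 0.26 ± 0.04, edgeR BH-adjusted p = 0.000106). The share of Lcp1 among plastins went from 90.0% to 91.3% down to 86.2% to 88.6%. T-plastin (Pls3), the form of solid tissues, rose from 106 ± 5.46 to 147 ± 12.1 CPM (0.47 ± 0.05, edgeR BH-adjusted p = 1.02e-05). Coro1a went from 20.9% to 22.5% of the coronins down to 16.4% to 19.7%. Among its paralogues Coro1c rose (566 to 636 CPM, 0.17 ± 0.04, edgeR BH-adjusted p = 0.00761) and Coro2a fell (−0.33 ± 0.08, edgeR BH-adjusted p = 0.0131). The share of Sh3pxd2a against Sh3pxd2b (TKS4) went from 61.6% to 63.4% down to 57.3% to 60.9%, with no call for Sh3pxd2b (207 to 217 CPM, edgeR BH-adjusted p = 0.267).

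**Figure D5:**
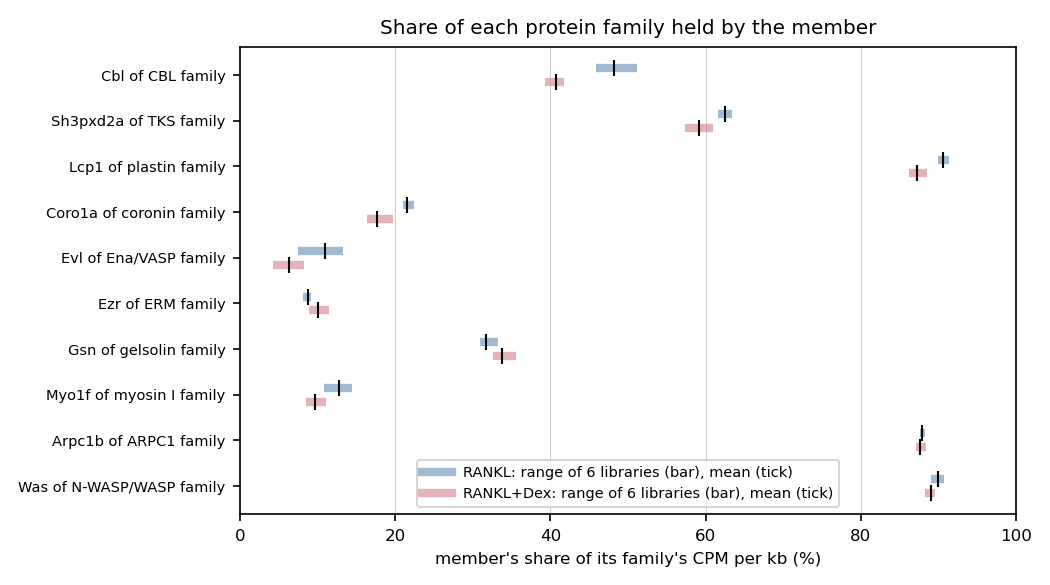
Share of 10 members in their protein family, in percent of the family's CPM per kilobase of exon, as the range of the 6 libraries of a group (bar) with its mean (tick). The bars of Cbl, Sh3pxd2a, Lcp1 and Coro1a do not overlap between RANKL (blue) and RANKL+Dex (red), and those of the other 6 members do.

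Other paralogues past the test lay beside members that gave no call, or that moved the other way. In the gelsolin family Gsn rose while adseverin (Scin), which also severs actin, fell from 386 ± 7.31 to 309 ± 19.2 CPM (−0.32 ± 0.04, edgeR BH-adjusted p = 2.55e-05). Beside paxillin, leupaxin (Lpxn), its relative in blood cells and osteoclasts, rose from 26.4 to 32.4 CPM (0.30 ± 0.07, edgeR BH-adjusted p = 0.00611). Beside cofilin 1, both relatives rose: Cfl2 (0.26, edgeR BH-adjusted p = 0.012) and destrin (Dstn, 351 to 400.2 CPM, 0.19 ± 0.05, edgeR BH-adjusted p = 0.0175). Talin 2 (Tln2), a minor form here, fell from 5.63 to 4.31 CPM (−0.38, edgeR BH-adjusted p = 0.0185), a call that did not hold with the length trend removed (−0.30, adjusted p = 0.0638). In 17 of the 28 families 1 member of the list held over 80% of the family in RANKL.

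The wider pathway was read from 10 lists of 186 other genes, of which 183 were in the table and 173 were tested. Of these, 51 (29.5%, beside 15.5% of all tested genes) were called, 17 higher and 34 lower, and with the block 70 (40.5%, beside 21.8%), 25 higher and 45 lower. Abundant genes are called more often, with 28.2% of tested genes at 100 CPM or more. No share at that level was computed for these lists, which were chosen with earlier results of these data known. Of the actin genes, Actb, the most abundant, gave no call (5578 to 5396 CPM, edgeR BH-adjusted p = 0.499). Actg1 fell from 3684 ± 171 to 3413 ± 91.9 CPM (−0.11 ± 0.03, edgeR BH-adjusted p = 0.0375), and without the filter on low counts the adjusted p was 0.0662. Among 35 exchange and activating factors 2 rose and 9 fell. Dock2, a RAC activator of leukocytes, fell from 75.1 ± 5.92 to 53.8 ± 3.42 CPM (−0.48 ± 0.05, edgeR BH-adjusted p = 1.22e-05), and Elmo2, a partner of DOCK proteins, fell from 40.3 to 33.1 CPM (−0.28, edgeR BH-adjusted p = 0.00145). The most abundant gene of that list, Arhgdia, gave no call (edgeR BH-adjusted p = 0.757).

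Formins, which build unbranched filaments, were called 4 times among 9, 1 higher and 3 lower. Beside this count and those below, 15.5% of all tested genes were called, and 28.2% of those at 100 CPM or more. Fmnl2 rose from 70.9 to 90.3 CPM (0.35 ± 0.06, edgeR BH-adjusted p = 0.000685), whereas Fhod1 fell from 224 to 189.8 CPM (−0.24, edgeR BH-adjusted p = 0.0146) and Inf2, the most abundant, fell from 445 to 388 CPM (−0.20, edgeR BH-adjusted p = 0.0162). In the list of WAVE complex and WASP partners 2 of 21 rose and 3 fell. The 2 with the smallest p were genes of F-BAR proteins, which bend membrane: Pstpip2 fell from 51.6 to 43.5 CPM (−0.25, edgeR BH-adjusted p = 0.000608) and Fnbp1l from 253 to 212 CPM (−0.25, edgeR BH-adjusted p = 0.000645). Pstpip1, the most abundant, gave no call (edgeR BH-adjusted p = 0.294). Of 28 kinases, phosphatases and lipid enzymes 4 rose and 7 fell. Pik3r1, the regulatory subunit of PI3-kinase, rose from 172 ± 4.58 to 248 ± 9.39 CPM (0.53 ± 0.03, edgeR BH-adjusted p = 1.79e-08). Ptpre, a tyrosine phosphatase that activates SRC in mouse osteoclasts, fell from 284 to 203 CPM (−0.48 ± 0.06, edgeR BH-adjusted p = 4.92e-05). Pip5k1c, the most abundant, gave no call (edgeR BH-adjusted p = 0.432).

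Among 24 adhesion partners 4 rose and 6 fell. The shares to set beside this count and those that follow are again 15.5% of all tested genes and 28.2% at 100 CPM or more. Tns1, a tensin that links integrins to actin, rose from 179.9 to 241 CPM (0.42 ± 0.06, edgeR BH-adjusted p = 9.09e-05). Itgav, the alpha chain of the vitronectin receptor, was the most abundant of the list and fell from 1248 to 1068 CPM (−0.22, edgeR BH-adjusted p = 0.00239). In the myosin II list 1 of 12 rose and 1 fell. Lsp1, a leukocyte actin-binding protein of podosome caps in macrophages, fell from 14.7 ± 2.41 to 6.18 ± 1.87 CPM (−1.26 ± 0.16, edgeR BH-adjusted p = 4.09e-05), the largest fall of the 173. Myh10, at a low level, rose from 1.54 to 2.16 CPM (0.48 ± 0.16, edgeR BH-adjusted p = 0.0497). Its call was lost with the block (edgeR BH-adjusted p = 0.0719) and held in 7 of 26 alternative settings. Myh9, the most abundant, was called with the block only (edgeR BH-adjusted p = 0.055 without, 0.0383 with). Of 13 genes of capping, severing and recycling 1 rose and 2 fell. Eps8, which caps and bundles filaments, rose from 8.91 to 14.1 CPM (0.67 ± 0.16, edgeR BH-adjusted p = 0.00718), and the adducin gene Add3 fell (−0.23, edgeR BH-adjusted p = 0.0378, and −0.21 at 0.0645 with the length trend removed). Tmsb4x, the most abundant, was called with the block and not without it (841 to 753 CPM, edgeR BH-adjusted p = 0.0856, and 0.00896 with the block). Of 16 partners in vesicles, microtubules and proteolysis 1 rose and 2 fell. Kif1c, a kinesin that regulates podosomes in human macrophages, rose from 511 to 568 CPM (0.15, edgeR BH-adjusted p = 0.00783), the cytolinker gene Macf1 fell (709.8 to 631 CPM, −0.17, edgeR BH-adjusted p = 0.0137, and −0.06 at 0.443 with the length trend removed), and Mmp14, the membrane collagenase and the most abundant, fell from 1408 to 1265 CPM (−0.15, edgeR BH-adjusted p = 0.0373, and −0.14 at 0.0717 with the length trend removed).

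Several calls among these paralogues and pathway genes did not hold when 1 batch was left out of both groups, in fits of 10 libraries, while most log2 fold changes moved little. Without batch 2 Fhod1 was at −0.20 (edgeR BH-adjusted p = 0.0706). Without batch 3 Inf2 was at −0.19 (edgeR BH-adjusted p = 0.0587), Dstn at 0.17 (0.0766), Add3 at −0.21 (0.119) and Macf1 at −0.16 (0.0507). Without batch 4 Coro2a was at −0.31 (edgeR BH-adjusted p = 0.0538), Cfl2 at 0.26 (0.0511) and Tln2 at −0.31 (0.0969). Without batch 6 Actg1 was at −0.08 (edgeR BH-adjusted p = 0.159) and Mmp14 at −0.14 (0.133). These are examples, and some of the genes also lost their call without other batches or single libraries. Of the 26 alternative settings, Actg1 was called in 10, Add3 in 12, Mmp14 in 13 and Dstn in 22. Fhod1, Inf2 and Tln2 were called in 23, Macf1 in 24, and Coro2a and Cfl2 in 25.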

How the data were processed

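The deposited table of 28293 Ensembl genes by 12 libraries holds raw read counts, which were used unchanged. The submitters' processing notes name HISAT2 2.1.0, StringTie 1.3.3b, DESeq 1.28.0, FastQC 0.11.5 and the build GRCm39. Not given in the sources used here are the program that counted reads, its annotation, its strand setting and its rule for repeated matches. Reads of overlapping genes and near-identical copies therefore cannot be told apart. Of the members, 24 members overlap another gene of the table, and for 4 (Vcl, Coro1a, Myo9b, Arpc1b) that gene had over 5% as many counts. Coordinates are those of the deposited table, except the promoters.

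Genes passing filterByExpr (minimum count 10, minimum total 15) were fitted with edgeR 4.0.16 (R 4.3.3), TMM scaling, all 12 libraries, no covariate. SE was derived from the F statistic and intervals used 10 residual degrees of freedom. CPM per kb used summed exon lengths of GENCODE M21 (GRCm38), matched by Ensembl ID. Counts per sample limit precision, and the spread between libraries (biological coefficient of variation 8.67%) is included in the test. The test was checked on simulated data. The labels' batch number is shared between the groups. Correlations of same-numbered deviations were 0.21, 0.31, 0.05, 0.06, 0.42 and 0.09, on average 0.189, compared with −0.0377 between unlike numbers. The same-numbered library was the best match in both groups for batches 1, 2 and 5, and not for batches 3, 4 and 6. Libraries of a group differed beyond sampling noise (chi-square per degree of freedom 3.22 to 19.6).

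Alternatives were RLE scaling, library totals, no filter, a filter of 1 CPM in 6 libraries, DESeq2 1.42.0, limma 3.58.1 voom, the replicate block, a length correction (lowess span 0.3, 13746 genes with a length) and leaving out each library or batch. The members and all gene lists were chosen with earlier results of these data known. Named genes were every member, and of each wider list the 2 called genes with the smallest p and the most abundant gene, the paralogues past the test and the most abundant marker of each list. Some genes and 1 list that these rules name are not reported here.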

Additional observations from a re-analysis of the deposited data

Results flagged for a closer look

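In 4 of 74 groups of 6 libraries (each of the 37 members in each treatment group) 1 library stood far from the others, with a gap to its nearest neighbour, as a part of the whole range, above the 95% critical value of Dixon's test. Chance alone gives about 1 such group in 20. Zyx was at 153 CPM in RANKL+Dex replicate 1, against 122 to 129 CPM in the other 5 libraries. Src was at 706 CPM in RANKL replicate 1, against 785 to 830.0 CPM in the rest. Flna stood at 2548 CPM in RANKL replicate 6, against 2073 to 2214 CPM, and at 2338 CPM in RANKL+Dex replicate 1, against 2030.5 to 2111 CPM.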

How the results depend on the processing

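Across 26 alternative settings no called member changed sign; of the uncalled members, Vcl, Pxn, Arpc1b and Arpc2, all near 0, did in 1 to 3 settings. Evl, Myo1f, Coro1a, Arpc4, Msn and Ezr were called in 26 of 26. Of 962 member and setting pairs, 913 kept their side of the threshold, 21 lost a call and 28 gained one. DESeq2 called 7 members higher in place of 4, and removal of the length trend left 3 called lower in place of 6; the called lower members had a median exon length of 7546 bases, against 4086 bases over tested genes. With the replicate block, which follows the labelled batches, 3000 genes, 13 members (6 higher, 7 lower) and 70 of the wider pathway were called; the block ended no call among the members. Leaving out single libraries or batches gave 1339 to 2493 called genes, 8 to 14 called members (3 to 6 higher, 4 to 9 lower) and 31 to 52 genes of the wider pathway. The lowest counts of genes came without batch 4 (1339) and batch 6 (1409) and that of the wider pathway without batch 3 (31), in fits of 10 libraries in place of 12; the highest (2493 genes, 14 members, 52 of the wider pathway) came without RANKL+Dex replicate 1. Fscn1, at 9 to 61 counts per library, is the member whose change depth limits most.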

Other observations

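Evl kept the same order over the batches in both groups, from batch 2 (highest) through batches 1, 3, 4 and 6 to batch 5 (lowest). The summed macrophage markers were likewise highest in batch 2, at 8676 CPM without and 8834 CPM with dexamethasone, and lowest in batch 5, at 5722 and 5646 CPM. Neutrophil markers (78.5 and 30.8 CPM in batch 2, 39.2 and 19.3 CPM in batch 5) and megakaryocyte markers (56.8 and 60.2 CPM, 30.2 and 33.5 CPM) had the same extremes in both groups. Dendritic cell and endothelial markers did not. They were highest in batch 2 in RANKL (86.5 and 49.6 CPM) but lowest in batch 2 in RANKL+Dex (41.9 and 27.0 CPM). Stromal markers were highest in batch 1 in RANKL (24.2 CPM) and in batch 3 in RANKL+Dex (27.1 CPM). Myo1f was also highest in batch 2 and lowest in batch 5 in both groups. No test was run on these orders, which were noticed after the values were seen.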
